A study of Mus musculus with 30 samples.

Results

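The type I interferon response genes described here are a listed set of 34 mouse genes, of 55573 genes in the bulk RNA tables and 31017 in the MOC1 single-cell tables. The list was given by name, by a rule that uses no measured value, but it was drawn up with earlier results of these data known. All 34 were found in the bulk tables through their Ensembl identifiers, and 33 in the single-cell tables of each model, which do not list Mx2. By role they are the nucleic acid sensors Ddx58, Ifih1, Dhx58 and Zbp1, the transcription factors Stat2, Irf9 and Irf7, and the RNA-binding family Ifit1, Ifit2, Ifit3, Ifit3b and Ifit1bl1. The oligoadenylate synthetase family is represented by Oas1a, Oas2, Oas3, Oasl1 and Oasl2, the ubiquitin-like modifier system by Isg15 and Usp18, and the Mx GTPases by Mx1 and Mx2. Rsad2, Cmpk2, Isg20, Bst2, Ifi44, Ifi27l2a, Rtp4, Trim30a, Xaf1 and Daxx are other induced effectors, and Slfn2, Slfn5 and Slfn8 belong to the Schlafen family.

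Type I interferons bind a receptor of the chains IFNAR1 and IFNAR2, whose kinases JAK1 and TYK2 activate transcription factors, STAT2 among them. With IRF9 these form a complex that binds interferon-stimulated response elements in the promoters of genes such as those above. Interferon gamma signals through its own receptor and induces many of the same genes, so their RNA alone does not name the ligand. In tumours such a response can come from carcinoma cells, myeloid cells and T cells alike.

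C57BL/6J mice carried 1 of 3 oral squamous carcinoma models: MOC1, MOC1E1 (some labels write MOC1esc1) or MOC22. For bulk RNA there were tumours of MOC1 and MOC1E1 without treatment, and cultured MOC1 and MOC1E1 cells, labelled as untreated, with 3 libraries in each of these 4 groups. Cells from tumours, which the labels call T cells for MOC1 and MOC22 and immune cells for MOC1E1, gave 1 droplet library per condition. Mice with MOC1 or MOC1E1 were given isotype, anti-CTLA-4 or anti-PD-1, and those with MOC22 isotype or anti-PD-1, by intraperitoneal injection on days 3, 6 and 9. Both antibodies block brakes on T cell activation. The sources used here do not give how MOC1E1 was derived, or whether the libraries of a bulk group are separate animals or cultures; p-values therefore describe the spread among these libraries and no more. The culture columns of the deposited table carry an interferon gamma tag in their names although the labels give no treatment; every culture value below is to be read with that conflict. Summed TPM of 6 carcinoma markers was 16518 to 18865 in tumours and 9239 to 10255 in cultures, where 7 T cell markers together reached at most 1.17 TPM. Single-cell libraries held 2755 to 4943 barcodes and 14766019 to 28466596 unique molecular identifiers (UMIs), and 2694 to 4724 cells were used.

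Promoter sequence was looked at first, because the response element is the shared feature of such genes. RefSeq windows of 300 bases, 250 before and 50 after the start, on GRCm38.p6 were at hand for 26 of the 34 members. The letters GAAANNGAAA, or TTTCNNTTTC on the other strand, stood in the windows of 15 of these 26 members (57.7%), against 3.99% of all 27025 genes with a window. They were Bst2, Ddx58, Ifih1, Ifit1, Ifit1bl1, Ifit3, Ifit3b, Isg15, Oas1a, Oas3, Rsad2, Slfn5, Slfn8, Stat2 and Trim30a. Matches can overlap each other, and a match is a description of letters, not of a bound site. The stretches of 6 members on which the values below turn are printed 5′ to 3′ along the gene, with the matches in capitals. Ifit1, Ifit3 and Oas1a were at least 10.5-fold apart between the cultured lines, and Isg15 was among the most abundant members. Ifit1bl1 was the member furthest apart between tumours, and Slfn8 was the 1 member called higher in MOC1E1 tumours.
Isg15: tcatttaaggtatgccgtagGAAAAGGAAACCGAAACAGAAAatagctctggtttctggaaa
Ifit1: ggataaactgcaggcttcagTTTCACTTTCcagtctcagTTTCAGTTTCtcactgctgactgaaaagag
Ifit3: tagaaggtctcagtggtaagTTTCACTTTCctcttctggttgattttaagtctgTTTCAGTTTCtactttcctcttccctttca
Ifit1bl1: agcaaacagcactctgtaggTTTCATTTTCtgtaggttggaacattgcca
Oas1a: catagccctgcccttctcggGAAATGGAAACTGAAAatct
Slfn8: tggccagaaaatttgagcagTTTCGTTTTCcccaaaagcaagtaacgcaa
The Isg15 stretch (chr4:156200855-156200916, minus strand) holds 3 overlapping matches, the nearest 66 bases before the start. The Ifit1 stretch (chr19:34640765-34640833, plus strand) holds 2 on the opposite strand, the nearest 85 bases before the start. The Ifit3 stretch (chr19:34583353-34583436, plus strand) recurs letter for letter before the neighbouring Ifit3b (chr19:34607749-34607832), so this window does not tell those genes apart. The other stretches lie at chr19:34602043-34602092 for Ifit1bl1, chr5:120907526-120907565 for Oas1a and chr11:83020829-83020878 for Slfn8, all on the minus strand. The windows of Irf7, Oasl2, Slfn2, Xaf1 and Ifi44, whose levels also differed between cultured lines, held no such letters.

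In cultured cells the set was lower in MOC1E1 than in MOC1 in nearly every member. Of 33 members tested, 31 fell and 0 rose, against 33.2% of all 13975 genes tested that fell and 20.2% that rose (limma on log2(TPM + 1), Benjamini-Hochberg adjusted p of at most 0.05). At an unadjusted p of 0.05 the counts were again 31 and 0. The median difference of the tested members was -1.97 on the log2(TPM + 1) scale, against -0.06 over all genes. Summed over the 34 members, MOC1 cultures (columns 4, 5 and 6) held 2087, 2087 and 2207 TPM and MOC1E1 cultures (columns 10, 11 and 12) 622, 666 and 656 TPM. Culture values below follow this order of columns. Genes were tested where at least 3 of the 6 libraries reached 1 TPM, and Oas2, Mx1, Mx2, Ifi27l2a and Trim30a did so through MOC1 alone, so these 5 of the 31 had to differ. Slfn5 was not tested, with 0.18 to 0.33 TPM in MOC1 and 0 in MOC1E1. For 31 members the groups did not overlap with MOC1 higher, as for 37.1% of all genes tested. Summed myeloid markers were 25.7 to 35.5 TPM in MOC1 cultures and 6.38 to 8.89 TPM in MOC1E1 cultures, with Cd14 and Lyz2 lower, while Ptprc, the common leukocyte gene, was at most 0.06 TPM in both. Their part in the result was not tested.

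**Figure D1:**
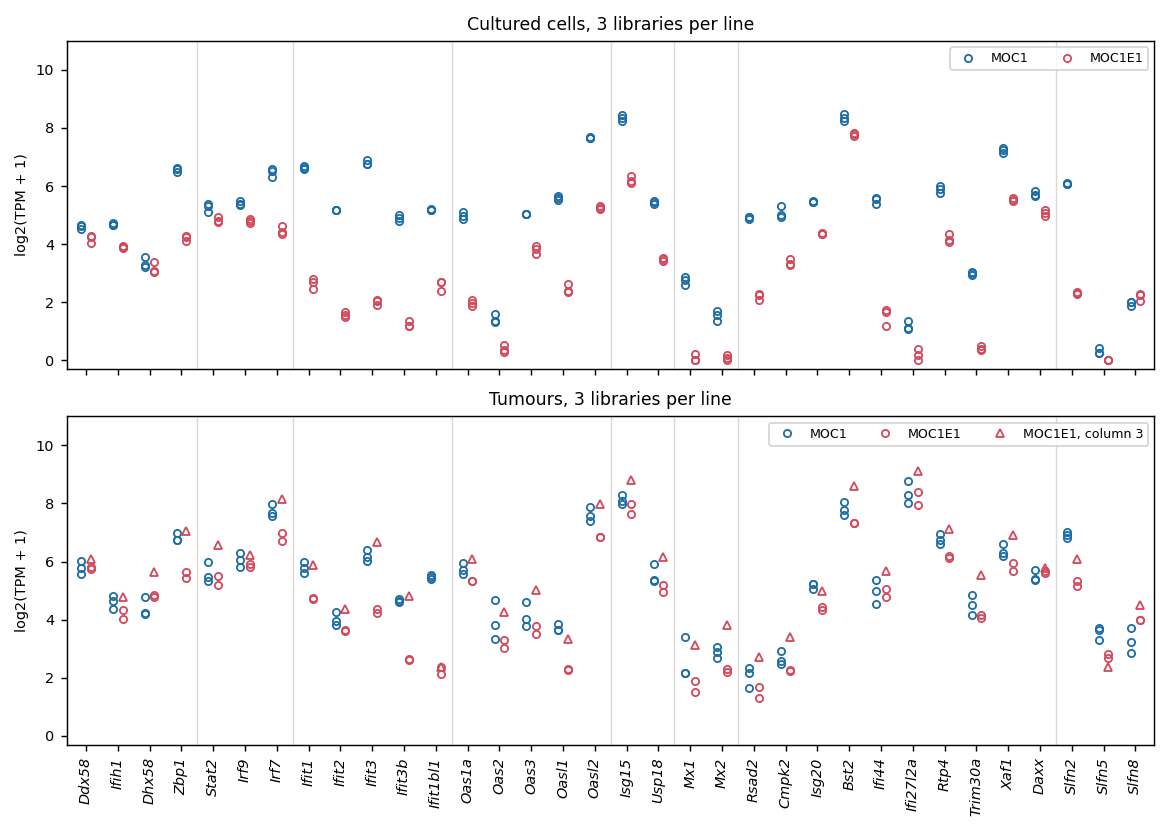
Level of each of the 34 members as log2(TPM + 1) in every bulk library, cultured cells above and tumours below, ordered by role with grey lines between roles. Blue circles are MOC1 and red circles MOC1E1; red triangles mark the MOC1E1 tumour library of column 3, which is the highest of its group for 33 of 34 members.

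The IFIT proteins bind viral RNA that lacks the host's cap marks, and all 5 of their genes fell, by 2.59 to 4.78 on the log2 scale. Ifit3 stood at 106.04, 106.12 and 116.89 TPM in MOC1 and at 3.24, 3.14 and 2.74 TPM in MOC1E1, a 36.1-fold difference of means (log2 difference -4.78, SE 0.07, adjusted p = 5.9e-08). The 3 libraries of each line lay close together and far from the other line. Ifit1 stood at 94.82, 96.53 and 102.21 TPM against 5.52, 5.99 and 4.53 TPM (-3.97, SE 0.09, adjusted p = 2.9e-07). Ifit2 stood at 35.1, 34.87 and 35.29 TPM against 1.93, 2.17 and 1.8 TPM (-3.61, SE 0.07, adjusted p = 1.8e-07). Ifit3b, at 26.77, 31.38 and 28.77 TPM against 1.29, 1.54 and 1.27 TPM (-3.66, SE 0.09), resembles Ifit3 closely in sequence, and how reads were shared between them by the authors' quantification was not tested.

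Oas1a, Oas3, Oasl1 and Oasl2 of the oligoadenylate synthetase family fell, by 1.24 to 3.12, and Oas2 passed the filter through MOC1 alone. The OAS enzymes activate the RNA-degrading RNase L, while OASL1 lacks that enzyme activity. Oasl2, the most abundant of them, stood at 202.42, 201.32 and 203.84 TPM in MOC1 and 35.78, 38.71 and 37.1 TPM in MOC1E1 (-2.41, SE 0.04, adjusted p = 1.3e-07). Oasl1, a translational brake on Irf7, stood at 49.08, 46.76 and 45.15 TPM against 5.24, 4.25 and 4.16 TPM (-3.12, SE 0.09, adjusted p = 5.0e-07). No library of either line approached the other line in these genes.

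Both genes of the ISG15 system fell. Isg15, the ubiquitin-like modifier, stood at 299.55, 323.8 and 345.25 TPM in MOC1 and 68.51, 80.32 and 70.74 TPM in MOC1E1 (-2.13, SE 0.08, adjusted p = 1.1e-06). Usp18, which removes ISG15 from proteins and dampens the receptor, had a difference of -1.97 (SE 0.06). The Mx GTPases, which passed the filter through MOC1 alone, were near 0 in MOC1E1: Mx1 stood at 6.4, 5.03 and 5.74 TPM against 0.16, 0 and 0.02 TPM.

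Sensors and transcription factors fell by less, apart from Zbp1 and Irf7. Zbp1, a sensor of Z-form nucleic acids that can start cell death, stood at 95.7, 89.53 and 96.47 TPM against 17.92, 18.64 and 16.32 TPM (-2.35, SE 0.06, adjusted p = 4.2e-07). The RNA helicases Ddx58 (RIG-I) and Ifih1 (MDA5) differed by -0.41 (SE 0.08) and -0.77 (SE 0.06). Dhx58, which modulates those helicases, did not pass the test and its groups overlapped, at 8.28 to 10.7 TPM in MOC1 and 7.21 to 9.39 TPM in MOC1E1. Irf7, which amplifies interferon production, fell by 2.01 (SE 0.1), and Stat2 and Irf9, partners in the interferon-activated complex, fell by 0.44 (SE 0.09) and 0.61 (SE 0.06).

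The other effectors fell, leaving aside Ifi27l2a and Trim30a, which passed the filter through MOC1 alone, and the smallest difference was that of Bst2. Bst2 (tetherin), which holds budding virus at the cell surface, stood at 325.08, 298.05 and 356.17 TPM against 211.21, 219.82 and 227.28 TPM (-0.57, SE 0.07, adjusted p = 4.1e-04). Xaf1, a pro-apoptotic antagonist of XIAP, stood at 151.8, 138.39 and 156.18 TPM against 43.52, 47.44 and 45.07 TPM (-1.69, SE 0.06, adjusted p = 1.1e-06). Ifi44 stood at 41.14, 47.56 and 45.47 TPM against 2.29, 2.18 and 1.29 TPM (-3.98, SE 0.14). Rsad2 (viperin), which makes a chain-terminating nucleotide, differed by -2.72 (SE 0.08), and its genomic neighbour Cmpk2 by -1.71 (SE 0.11).

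The Schlafen genes did not move together. Slfn2, needed for T cell quiescence, stood at 68.57, 66.91 and 66.96 TPM in MOC1 cultures and 4.03, 3.9 and 4.11 TPM in MOC1E1 (-3.77, SE 0.05, adjusted p = 4.5e-08). Slfn8 was the 1 tested member with higher values in MOC1E1, at 3.1 to 3.82 TPM against 2.66 to 3.01 TPM, without passing the test (0.23, SE 0.11, adjusted p = 0.11).

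In whole tumours 4 members fell and 1 rose, shares that were no larger than those of all genes. All 34 members were tested, none through 1 group alone. The 4 that fell, against 11.9% of 15125 genes, were Ifit1bl1, Slfn2, Slfn5 and Oasl1, and the 1 that rose, against 6.70% of genes, was Slfn8. At an unadjusted p of 0.05, 6 were lower and 2 higher. The median difference was -0.16 on the log2(TPM + 1) scale, against -0.04 over all genes, with 25 of 34 values below 0. In bulk tissue, fewer cells of a type and less RNA per cell cannot be told apart. Groups did not overlap, with MOC1 higher, for 5 members, against 22.5% of genes tested: the 4 that fell and Isg20. Values follow columns 3, 4 and 5 for MOC1 and columns 1, 2 and 3 for MOC1E1.

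Ifit1bl1 was the member with the smallest p in tumours, at 41.32, 42.91 and 45.22 TPM in MOC1 and 3.36, 4.15 and 4.16 TPM in MOC1E1, 11.1-fold apart (log2 difference -3.18, SE 0.12, adjusted p = 1.9e-05). Every MOC1E1 library was low in this gene. The other IFIT genes did not pass the test. Ifit3b stood at 25.04, 24.22 and 23.66 TPM against 5.15, 5.19 and 27.01 TPM (-1.31, SE 0.54, adjusted p = 0.13), with 1 MOC1E1 library above all MOC1 libraries and the other 2 far below.

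The Schlafen genes again divided. Slfn2 stood at 128, 118.59 and 112.21 TPM in MOC1 and 34.94, 39.63 and 66.23 TPM in MOC1E1 (-1.38, SE 0.22, adjusted p = 0.0057). Slfn5 stood at 11.6, 11.96 and 8.83 TPM against 5.46, 6.01 and 4.17 TPM (-0.93, SE 0.18, adjusted p = 0.013). Slfn8 went the other way, at 12.1, 8.45 and 6.18 TPM against 14.84, 14.88 and 21.48 TPM (0.89, SE 0.24, adjusted p = 0.042), with no overlap between lines. Its call was lost without any 1 of 5 libraries, all except MOC1 column 3, and when the filter or the trend of the fit was dropped.

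Oasl1 stood at 13.54, 11.51 and 11.51 TPM against 3.87, 3.91 and 9.12 TPM (-1.08, SE 0.29, adjusted p = 0.037). Isg20, an exonuclease that degrades RNA, stood at 36.8, 36.79 and 32.36 TPM against 18.91, 20.6 and 30.87 TPM and did not pass (-0.60, SE 0.18, adjusted p = 0.056). Dhx58, the sensor that differed least in cultures, stood at 26.67, 17.64 and 17.39 TPM against 26.65, 27.74 and 49.19 TPM (0.69, SE 0.26, adjusted p = 0.10). In all 3 genes the MOC1E1 library of column 3 was well above its group.

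The members with the highest tumour levels did not pass the test and their groups overlapped. Ifi27l2a, an interferon-induced mitochondrial or nuclear membrane protein gene, stood at 436.58, 259.7 and 314.62 TPM in MOC1 and 242.71, 332.9 and 555.55 TPM in MOC1E1 (0.11, SE 0.3). Isg15 stood at 313.29, 270.2 and 254.01 TPM against 252.52, 196.88 and 451.14 TPM (0.02, SE 0.27). Bst2 stood at 265.97, 216.61 and 192.73 TPM against 158.08, 157.78 and 388.57 TPM (-0.06, SE 0.33). Each of the 3 was highest in MOC1E1 column 3 and lowest in another MOC1E1 library. Irf7 stood at 252.88, 200.25 and 187.35 TPM against 103.84, 124.6 and 282.9 TPM (-0.45, SE 0.34). Oasl2 stood at 236.42, 188.88 and 166.53 TPM against 114.33, 113.28 and 250.67 TPM (-0.40, SE 0.3). Rtp4, a chaperone of receptors that also limits flavivirus replication, stood at 122.73, 105.96 and 95.85 TPM against 67.93, 72.67 and 138.27 TPM (-0.29, SE 0.25). In these 3 genes the MOC1E1 libraries of columns 1 and 2 were below every MOC1 library, and column 3 was above every one.

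That MOC1E1 library weighed most in the tumour comparison. It was the highest of its group for 33 of 34 members, and the members' summed level was 3341 TPM in it, against 1558 and 1657 TPM in the other MOC1E1 tumours and 2843, 2259 and 2140 TPM in MOC1. Without it, 14 members were called lower and 0 higher, and the median was -0.52. Without MOC1 column 4, 2 were called lower. The shares of all genes called in these smaller fits are not given here, so these counts have no background. Summed fibroblast markers were 503 TPM in column 3 against 1980 and 2421 TPM in the other MOC1E1 tumours, myeloid markers 499 against 793 and 797 TPM, and neutrophil markers 10.4 against 29.0 and 29.2 TPM. T cell markers were 42.7 TPM in it against 12.5 and 23.5 TPM. Between the lines, 7 of 11 myeloid and 3 of 3 neutrophil markers fell in MOC1E1, against 11.9% of all genes tested. In MOC1, summed myeloid markers were at 1071 to 1151 TPM and neutrophil markers at 157 to 213 TPM. No marker on either list was at 0 in any tumour. Their part in the members' levels was not tested.

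The line difference itself changed between culture and tumour. In 1 fit over the 12 libraries, 20 of 34 members had a difference that was higher in tumours than in cultures, against 10.2% of 16813 genes, and 1 had a lower one, against 6.61% (limma, adjusted p of at most 0.05). The median of this difference of differences was 1.53, against 0.04 over all genes. It was 4.19 for Ifi44 (adjusted p = 1.8e-05), 3.46 for Ifit2 (adjusted p = 7.4e-06), 3.3 for Ifit1 (adjusted p = 1.0e-04) and 2.84 for Oas1a (adjusted p = 2.5e-05). These 4 genes were at least 10.5-fold apart between cultured lines and their tumour groups overlapped. Rsad2 had 2.58 (adjusted p = 0.0015), Slfn2 2.39 (adjusted p = 8.1e-05), Isg15 2.15 (adjusted p = 9.5e-04), Oasl1 2.04 (adjusted p = 0.0015), Oasl2 2.02 (adjusted p = 0.0022), Irf7 1.55 (adjusted p = 0.022) and Xaf1 1.51 (adjusted p = 0.01). Slfn2 and Oasl1 thus fell in both settings, by less in tumours. Ifit1bl1 was the 1 member called on the lower side, at -0.59 (adjusted p = 0.018), and Slfn5 had -0.63 without passing (adjusted p = 0.062). Ifi27l2a (1.11, adjusted p = 0.063) and Bst2 (0.50, adjusted p = 0.43) did not pass. Tumours hold cells that cultures lack, and the culture columns carry an interferon gamma tag in their names. The part of either in the difference was not tested. The 2 tables were deposited separately, so levels are not compared across them. Leaving out 1 library at a time gave 17 to 25 higher members, 21 of them without MOC1E1 tumour column 3.

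**Figure D2:**
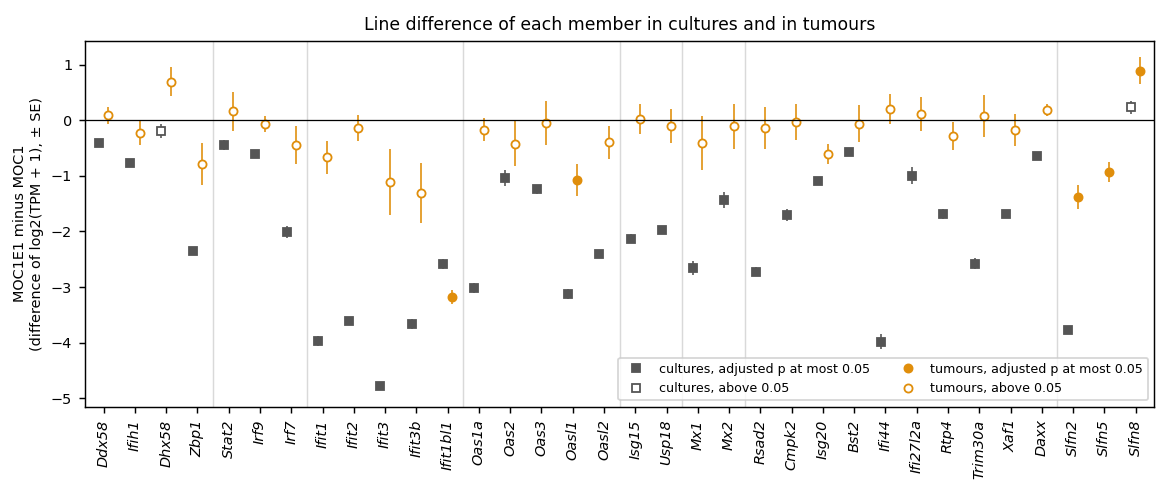
Difference of log2(TPM + 1), MOC1E1 minus MOC1, for each member with its standard error, in cultures (grey squares) and tumours (orange circles), filled where the adjusted p is at most 0.05. In cultures 31 of 33 squares are filled below 0, while in tumours 4 circles are filled below 0 and 1, Slfn8, above.

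Other genes of the pathway were read from fixed lists. In cultures 33.2% of all genes tested fell and 20.2% rose, which is the background for the culture counts of these lists. Of the receptor and transduction genes in cultures, 9 were tested, 5 fell and 1 rose. Ifnar1 stood at 17.16, 17.44 and 15.48 TPM in MOC1 and 14.58, 12.96 and 13.81 TPM in MOC1E1 (-0.26, SE 0.07, adjusted p = 0.022). Ifnar2, the other receptor chain, stood at 17.77, 15.11 and 14.82 TPM against 9.98, 10.48 and 12.34 TPM (-0.50, SE 0.1, adjusted p = 0.005). Those receptor differences were small beside the members' median. Socs3, a feedback inhibitor of JAK kinases, was the gene that rose (0.46, SE 0.09). Of the sensing and induction genes, 12 were tested, 10 fell and 1 rose. Tmem173 (STING), the adaptor of cytosolic DNA sensing, stood at 36.64, 36.47 and 36.49 TPM against 7.68, 8.95 and 10.19 TPM (-1.92, SE 0.09, adjusted p = 4.5e-06). All 19 tested genes of the interferon gamma axis fell, with a median of -1.11 and summed levels of 5776 to 6021 TPM against 2557 to 2563 TPM. Among them Cxcl10, a T cell attracting chemokine, stood at 288.33, 253.3 and 280.33 TPM against 33.57, 36.72 and 36.16 TPM (-2.91, SE 0.06). Cultures thus differed in genes of both interferon lists.

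In tumours, where 11.9% of all genes tested fell, 1 of 9 receptor and transduction genes fell (Ptpn6) and none rose. Of 14 sensing genes, 5 fell (Tmem173, Irf3, Ikbke, Mb21d1 and Myd88). Of 20 genes of the interferon gamma axis, 1 fell (Cd274, the gene of PD-L1). Cd274 stood at 15.21, 15.49 and 14.52 TPM in MOC1 and 3.12, 3.74 and 9.03 TPM in MOC1E1 (-1.47, SE 0.31, adjusted p = 0.017). Tmem173 stood at 44.22, 41.02 and 42.47 TPM against 31.42, 29.52 and 33.76 TPM (-0.42, SE 0.09, adjusted p = 0.02). None of the 10 ligand genes passed the filter in either table. Their summed level was at most 1.34 TPM, in a MOC1 culture, and at most 0.610 TPM in tumours.

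Cells were put into classes by their own transcripts, without use of any member. A T cell had a UMI of Cd3d, Cd3e or Cd3g, a CD8 cell Cd8a or Cd8b1 without Cd4 or Foxp3, a CD4 cell Cd4 without Cd8a, Cd8b1 or Foxp3, and a Foxp3-positive cell Foxp3 without Cd8a or Cd8b1. A myeloid cell had no Cd3 transcript and at least 3 of 8 myeloid genes. Foxp3 is the defining factor of regulatory T cells. With isotype, PD-1 antibody and CTLA-4 antibody in turn, CD8 cells numbered 811, 1395 and 2094 in MOC1 and 266, 739 and 1344 in MOC1E1, and in MOC22 1424 and 2189. CD4 cells numbered 716, 637 and 682, then 176, 282 and 322, then 466 and 116. Classes under 50 cells gave no value, which removed Foxp3-positive cells under anti-CTLA-4 (44 and 41 cells) and all myeloid cells outside MOC1E1. Any pair of libraries shared at most 0.94% of barcodes. Levels are CPM, a gene's share of the class's summed UMIs scaled to a fixed total and not per gene length, with exact Poisson intervals that cover counting error only.

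Ifi27l2a was the most abundant member in every class, and CD8 cells held less of it than the other classes. Its level ranged from 378 to 1427 CPM in CD8 cells, from 1183 to 3371 in CD4 cells and from 2464 to 4790 in Foxp3-positive cells, in all libraries with a value. Summed over libraries, Slfn2 followed in all 3 T cell classes, at 244 to 401 CPM in CD8 cells, 306 to 578 in CD4 cells and 228 to 311 in Foxp3-positive cells. Bst2 stood at 100 to 225, 74.4 to 234 and 211 to 403 CPM, Isg15 at 86.4 to 210, 65.4 to 290 and 98.3 to 390 CPM, and Zbp1 at 59.3 to 139, 40.8 to 165 and 122 to 194 CPM in the same order. Isg20 stood at 56.2 to 175, 36.5 to 140 and 125 to 256 CPM.

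A comparison of classes within libraries was added after the data had been seen. It used summed UMIs and edgeR's quasi-likelihood test with the library as a block, over the genes that all 8 libraries list. Between CD4 and CD8 cells of 8 libraries, 5 of 32 tested members were higher, against 12.7% of 10580 genes, and 5 lower, against 10.9%, shares near those of all genes. Ifi27l2a was higher in CD4 cells in 8 of 8 libraries, at 1197, 2293 and 3416 CPM (lowest, median and highest) against 383, 842 and 1446 CPM (log2 ratio 1.30, SE 0.11, adjusted p = 3.0e-06). Slfn5 was higher in 8 of 8, at 11.7, 27.9 and 45.0 CPM against 2.70, 9.33 and 15.4 CPM (1.51, SE 0.12, adjusted p = 1.6e-05). Ifih1 (0.92, adjusted p = 1.3e-04) and Slfn2 (0.41, adjusted p = 0.0025) were also higher in 8 of 8, and Oasl2 in 7 of 8 (1.09, adjusted p = 0.03). Mx1 was lower in CD4 cells in 8 of 8 libraries, at 2.69, 6.50 and 14.3 CPM against 8.23, 12.2 and 29.9 CPM (-1.08, SE 0.19, adjusted p = 8.3e-04). Isg20, Ifit3, Trim30a and Xaf1 were lower by 0.22 to 0.75 in 6 or 7 of 8 libraries. Leaving out 1 library gave 2 to 4 members called lower.

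Between Foxp3-positive and CD4 cells of 6 libraries, 5 of 31 tested members were higher, against 10.8% of 9422 genes, and 4 lower, against 10.5%. Isg20 was higher in Foxp3-positive cells in 6 of 6 libraries, at 127, 203 and 260 CPM against 36.9, 97.8 and 129 CPM (1.00, SE 0.18, adjusted p = 7.3e-05). Bst2 (0.47, adjusted p = 0.0011) and Ifi27l2a (0.43, adjusted p = 0.0036) were also higher in 6 of 6, and Oas1a (0.76, adjusted p = 0.011) and Zbp1 (0.35, adjusted p = 0.024) in 5 of 6. Slfn2 was lower in 6 of 6 libraries, at 232, 308 and 315 CPM against 409, 452 and 585 CPM (-0.80, SE 0.06, adjusted p = 5.9e-06). Slfn2 was therefore highest in CD4 cells without Foxp3, above both other T cell classes. Ifih1, Ifit2 and Oas3 were lower by 0.54 to 0.65. The counts depended on single libraries: without MOC1 anti-PD-1, 3 members were higher and 7 lower, and without MOC1 isotype 1 was lower.

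**Figure D3:**
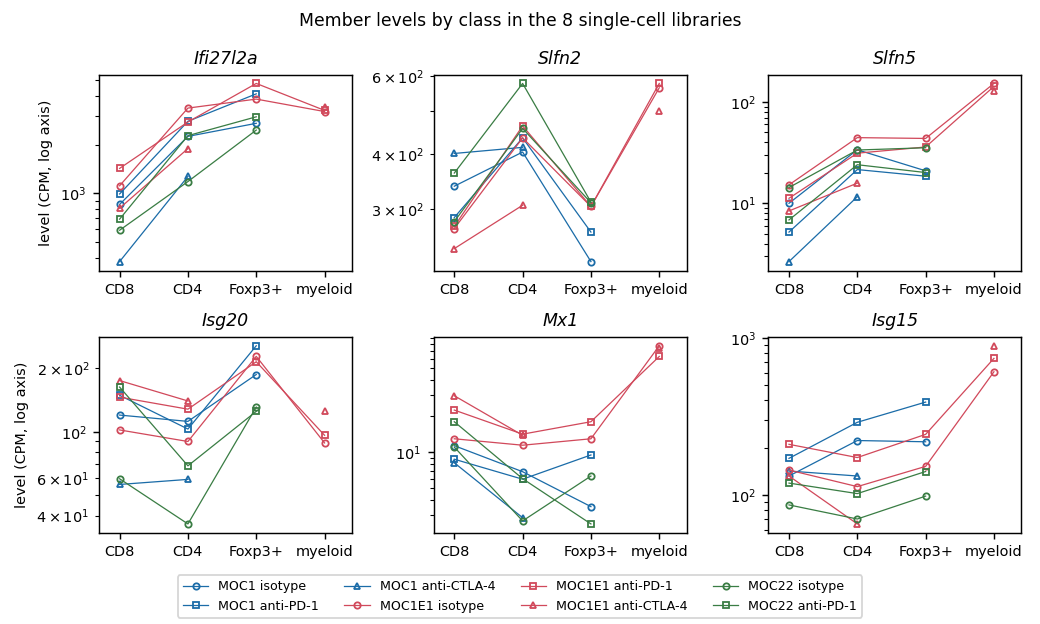
Level in CPM (log axis) of Ifi27l2a, Slfn2, Slfn5, Isg20, Mx1 and Isg15 in the CD8, CD4, Foxp3-positive and myeloid classes, 1 line per library, with no point for a class under 50 cells. Ifi27l2a and Slfn5 are lower in CD8 than in CD4 cells in every library, Slfn2 drops from CD4 to Foxp3-positive cells in every library with both, and Isg15 and Mx1 are highest in the myeloid cells of MOC1E1.

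Anti-CTLA-4 in MOC1 went with lower levels of nearly the whole set in CD4 cells. Each condition is 1 library, so no test of the treatment is possible and the values compare those libraries. The members' summed level was 2218 CPM (2169 to 2267) in CD4 cells under anti-CTLA-4, against 4018 CPM (3952 to 4085) with isotype. Of 31 members with at least 20 UMIs in both libraries together, 30 were at least 1.5-fold lower and 0 higher, against 16.6% and 5.45% of 9466 features. Their median log2 ratio was -1.52, against -0.12 over all features. All 5 IFIT genes, all 4 OAS genes with enough UMIs, all 4 sensors and all 3 transcription factors were past 1.5-fold lower. The fall was not confined to the members. Of 18 genes of the interferon gamma list with enough UMIs, 15 were past 1.5-fold lower and 1 higher, with a median of -1.04.

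In these CD4 cells Ifit3 stood at 0.849 CPM, from 3 UMIs, against 34 CPM with isotype (log2 ratio -5.11, counting interval -7.62 to -3.74). Rtp4 stood at 5.09 against 65.1 CPM (-3.64, -4.46 to -2.98), Ifit1 at 6.51 against 43.7 CPM (-2.72, -3.45 to -2.11) and Oas1a at 5.38 against 25.7 CPM (-2.23, -3.05 to -1.53). Oasl2 had 0 UMIs against 62, at least 20.8-fold lower with a floor of 3 UMIs for the library. Oasl1 and Ifit3b also had 0 UMIs, at least 6.73-fold and 7.74-fold lower on the same floor, and with these bounds the median stayed at -1.52. Isg15 was less far apart, at 132 against 222 CPM (-0.75), and so was Ifi27l2a, at 1273 against 2252 CPM (-0.82). Slfn2 was the 1 tested member that was not lower, at 414 against 404 CPM (0.04, -0.07 to 0.14).

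The MOC1 cells carry 4 hashtags per library, and the labels do not say what a hashtag marks. Overlap between the hashtags of the libraries was looked at after the data had been seen. In CD4 cells, 27 of 31 members were lower under anti-CTLA-4 in every hashtag than in any isotype hashtag and 0 were higher, against 9.57% and 4.88% of features. The summed level was 1934 to 2494 CPM over the anti-CTLA-4 hashtags and 3190 to 4566 CPM over those of isotype. Rtp4 ran from 1.38 to 8.67 CPM over the anti-CTLA-4 hashtags and from 52.3 to 83.7 CPM with isotype. Irf7 ran from 30.8 to 47.7 CPM against 86.6 to 133 CPM. Isg15 overlapped, at 74.9 to 175 CPM against 174 to 321 CPM.

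CD8 cells of the same MOC1 library showed the same direction with smaller ratios. The summed level was 1453 CPM (1434 to 1472) against 2333 CPM (2289 to 2376), and 23 of 31 members were at least 1.5-fold lower and 0 higher, against 12.9% and 11.9% of 10551 features. The median was -0.85, against 0.02. Of 18 genes of the interferon gamma list, 5 were past 1.5-fold lower and 3 higher in these cells, with a median of -0.32. Oas1a stood at 4.66 against 21.3 CPM (-2.19), Rtp4 at 17.6 against 57.7 CPM (-1.71), Ifit3 at 9.46 against 28.6 CPM (-1.60) and Ifit1 at 13.1 against 30.7 CPM (-1.24). Isg15, at 142 against 132 CPM (0.11, -0.02 to 0.24), and Slfn2, at 401 against 338 CPM (0.25, 0.17 to 0.33), were not lower. Over hashtags, 15 members did not overlap on the lower side and 1, Slfn2, on the higher, against 9.90% and 14.7% of features. Median UMIs per cell were 5734.5 in CD8 cells under anti-CTLA-4 and 5076.0 with isotype, and 4571.5 and 3904.0 in CD4 cells. Total UMIs were 24728203 and 28466596, and the part of depth in the result was not tested. Foxp3-positive cells were 1.23% of cells used under anti-CTLA-4 and 25.67% with isotype. A regulatory cell whose Foxp3 RNA was missed counts as a CD4 cell, and the part of this in the result was not tested.

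**Figure D4:**
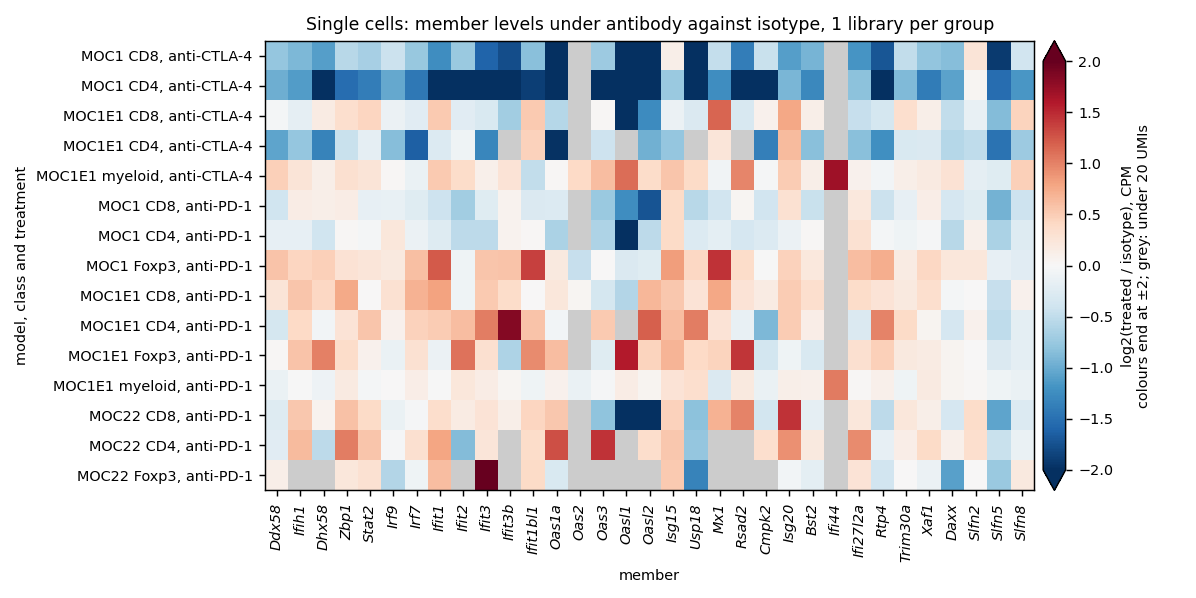
Log2 ratio of CPM, treated over isotype, for the 33 members listed in the single-cell tables (columns, by role) in each model, class and treatment (rows); blue is lower and red higher under antibody, colours end at ±2, and grey marks fewer than 20 UMIs. The rows of MOC1 CD8 and CD4 cells under anti-CTLA-4 and of MOC1E1 CD4 cells under anti-CTLA-4 are mostly blue, and the MOC1E1 rows under anti-PD-1 mostly pale red.

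Anti-PD-1 in MOC1 left the summed level of CD8 cells where it was, at 2337 CPM (2308 to 2366) against 2333 CPM, while 22 of 31 single members were below isotype, against 47.9% of all features. Without Ifi27l2a the sum was 1346 CPM (1324 to 1369) against 1478 CPM (1444 to 1513). Ifi27l2a itself, at 991 against 854 CPM (0.21), and Isg15, at 171 against 132 CPM (0.38), were higher. Of 31 members, 5 were past 1.5-fold lower and 0 higher, against 11.1% and 9.92% of features, and the median was -0.27, against 0.02 over all features. Those 5 were 3 OAS genes (ratios as far as -1.72), 1 IFIT gene (-0.69) and 1 Schlafen gene (-0.95). Among members of at least 20 CPM, the largest ratios were short of 1.5-fold. Bst2 stood at 141 against 192 CPM (-0.45), Rtp4 at 42.8 against 57.7 CPM (-0.43), Ifit1 at 23.2 against 30.7 CPM (-0.41) and Ddx58 at 30.4 against 40.1 CPM (-0.40). Over hashtags Bst2 alone was lower without overlap and 0 were higher, against 7.29% and 11.4% of features, at 103 to 173 CPM and 181 to 208 CPM with isotype. In CD4 cells 4 of 31 were past 1.5-fold lower and 0 higher, against 8.29% and 4.58% of features, with a median of -0.17, against -0.04. Those 4 were Slfn5, at 21.5 against 33.7 CPM (-0.64), and 3 OAS genes, among them Oas1a at 16.5 against 25.7 CPM (-0.63). Short of 1.5-fold were Daxx, at 35.3 against 52.0 CPM (-0.56), and Ifit3, at 23.4 against 34 CPM (-0.53). In these CD4 cells 1 member, Oasl1, was lower without overlap over hashtags and 0 were higher, against 3.88% and 2.77% of features. Their summed member level was above isotype all the same, with a log2 ratio of 0.18 (counting interval 0.15 to 0.21).

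By member counts and median, Foxp3-positive cells of MOC1 went the other way under anti-PD-1. Their summed level was 6341 CPM (6244 to 6440) against 4375 CPM (4330 to 4421), and 7 of 32 members were at least 1.5-fold higher and 0 lower, against 4.39% and 8.91% of 10197 features. The median was 0.32, against -0.05. Ifit1 stood at 53.5 against 23.0 CPM (1.22, counting interval 0.89 to 1.55), Isg15 at 390 against 218 CPM (0.84), Rtp4 at 94.5 against 57.4 CPM (0.72) and Ifi27l2a at 4129 against 2713 CPM (0.61). Isg15, Irf7, Ifi27l2a and Ddx58 were higher in every anti-PD-1 hashtag than in any isotype hashtag and 0 were lower, against 2.17% and 4.51% of features. Isg15 ran from 326 to 448 CPM over the anti-PD-1 hashtags and from 194 to 284 CPM with isotype. The class itself held 432 cells under anti-PD-1 and 1157 with isotype.

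**Figure D5:**
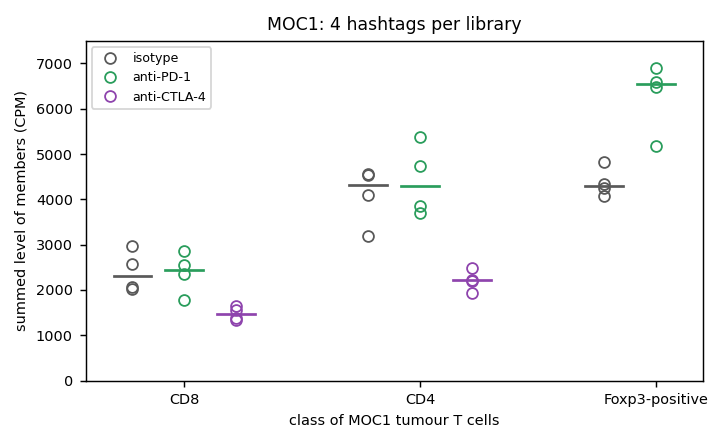
Summed level of the members in CPM in MOC1 CD8, CD4 and Foxp3-positive cells, 1 circle per hashtag (4 per library) and a bar at their median, by antibody. All 4 anti-CTLA-4 hashtags lie below all isotype hashtags in CD8 and CD4 cells, and all 4 anti-PD-1 hashtags lie above in Foxp3-positive cells.

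In MOC1E1 under anti-PD-1, more members stood above isotype than below it in all 3 T cell classes: 27 of 32 in CD8, 21 of 30 in CD4 and 21 of 31 in Foxp3-positive cells. Of all features, 45.4%, 48.8% and 54.2% stood below isotype in those classes, with medians of 0.04, 0.01 and -0.04. The summed level of CD8 cells was 3422 CPM (3370 to 3476) against 2693 CPM (2616 to 2772). Of 32 members, 5 were at least 1.5-fold higher and 1 lower, against 11.8% and 7.13% of features, with a median of 0.28. Ifit1 stood at 69.7 against 39.8 CPM (0.80, 0.43 to 1.21), Mx1 at 22.4 against 12.9 CPM (0.77, 0.13 to 1.53), Zbp1 at 139 against 82.5 CPM (0.75, 0.49 to 1.03) and Irf7 at 143 against 88.3 CPM (0.69, 0.44 to 0.96). In CD4 cells 7 of 30 were higher and 1 lower, against 9.27% and 7.73% of features (median 0.33), while the summed level was 5029 CPM (4910 to 5150) against 5240 CPM (5089 to 5393). Oasl2 stood at 34.9 against 14.8 CPM (1.20), Ifit3 at 56.4 against 27.3 CPM (1.03), Usp18 at 21.5 against 10.2 CPM (1.02) and Rtp4 at 123 against 61.4 CPM (0.99). In Foxp3-positive cells 7 of 31 were higher and 1 lower, against 7.41% and 8.78% (median 0.30), with Dhx58 at 22.7 against 10.9 CPM (1.01) and Isg15 at 243 against 152 CPM (0.68). Oas1a stood at 47.8 against 30.7 CPM (0.62), and Ifih1, short of 1.5-fold, at 26.9 against 17.8 CPM (0.57, -0.23 to 1.47). Lyz2, a myeloid transcript that T cells lack, was at 300 CPM in CD8 cells under anti-PD-1 and 35.1 CPM with isotype, and at 794 and 312 CPM in CD4 cells, against 17711 and 18009 CPM in the myeloid class. It was 0.312 to 63.7 CPM in MOC1 T cells. The part of such foreign RNA in the MOC1E1 values was not tested.

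Under anti-CTLA-4 in MOC1E1, CD4 cells were lower again, while members in CD8 cells went both ways with a slightly lower sum. Of 27 members in CD4 cells, 15 were at least 1.5-fold lower and 1 higher, against 16.7% and 11.6% of 7838 features, and the median was -0.78, against -0.08. Oas1a stood at 7.57 against 30.7 CPM (-1.98, -3.18 to -0.96), Irf7 at 33.7 against 106 CPM (-1.64, -2.18 to -1.14), Slfn5 at 15.8 against 44.4 CPM (-1.47) and Cmpk2 at 9.64 against 25.0 CPM (-1.36). The summed level was 3135 CPM (3044 to 3227) against 5240 CPM. In CD8 cells the summed level was 2451 CPM (2416 to 2486) against 2693 CPM (2616 to 2772). There 4 of 31 members were past 1.5-fold lower and 2 higher, against 12.2% and 14.9%, and 18 of 31 were below isotype (median -0.12, against 0.01). Counting intervals of the ratio lay below 0 for 6 of these members and above 0 for 7. Oasl1 had a ratio of -2.07 (-3.17 to -0.94), Oasl2 -1.26 (-2.10 to -0.33) and Slfn5 -0.87 (-1.54 to -0.14). Mx1 stood at 29.5 against 12.9 CPM (1.17, 0.56 to 1.90), Isg20 at 175 against 102 CPM (0.77), and Ifit1bl1 and Ifit1 each had a ratio of 0.53. Lyz2 was 252 CPM in the CD4 cells under anti-CTLA-4 and 28.3 CPM in the CD8 cells. Foxp3-positive cells were 1.35% of cells used under anti-CTLA-4 and 5.1% with isotype, and the part of this in the CD4 values was not tested.

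MOC22 was compared for anti-PD-1 only. In CD8 cells 5 of 31 members were lower and 3 higher, against 10.5% and 18.8% of features, with a median of 0.12 against 0.16 for all. Isg20 stood at 163 against 59.8 CPM (1.45, 1.32 to 1.58), while Oas3 stood at 12.4 against 21.5 CPM (-0.80). Short of 1.5-fold were Zbp1, at 119 against 79.6 CPM (0.58), and Rtp4, at 52.5 against 75.2 CPM (-0.52). The set thus divided within 1 class. In CD4 cells 7 of 27 were higher and 2 lower, against 24.7% and 10.0%, with Oas3 at 32.9 against 12.2 CPM (1.45), Oas1a at 35.9 against 14.8 CPM (1.29), Zbp1 at 165 against 81.0 CPM (1.03) and Ifi27l2a at 2276 against 1183 CPM (0.94). Foxp3-positive cells, 75 and 112 in number, had 2 of 21 members higher and 4 lower, against 19.4% and 11.5%. Ifit3 stood at 55.2 against 6.30 CPM there, from 22 and 5 UMIs (3.03, 1.70 to 4.89), and Daxx at 30.1 against 65.5 CPM (-1.08). Usp18 had 3 UMIs under anti-PD-1 (-1.33, -3.92 to 0.28), and Slfn5 had a ratio of -0.75 (-2.16 to 0.36).

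Myeloid cells held the highest summed member level of any class, and only MOC1E1 had enough of them. Ifi27l2a was an exception, with up to 4790 CPM in Foxp3-positive cells, and Slfn2 reached 578 CPM in MOC22 CD4 cells under anti-PD-1. Their summed level was 8364 CPM (8297 to 8431) with isotype, and the PD-1 and CTLA-4 antibody libraries had 8757 CPM (8697 to 8818) and 9393 CPM (9238 to 9549), from 1187, 1414 and 359 cells. After Ifi27l2a, at 3209, 3262 and 3405 CPM, the most abundant members were Isg15 at 608, 740 and 890 CPM, Irf7 at 584, 645 and 530 CPM, Slfn2 at 565, 578 and 500 CPM, Bst2 at 452, 485 and 489 CPM and Zbp1 at 286, 323 and 357 CPM. Irf7 thus ranked among the first in myeloid cells, whereas in no T cell class was it among the 6 most abundant. With anti-PD-1, 1 of 33 members was past 1.5-fold higher and 0 lower, against 3.12% and 5.48% of features. That member was an effector gene with a ratio of 1.04. Short of 1.5-fold, the ratios were 0.33 for Usp18, 0.28 for Isg15, 0.22 for Ifit2 and -0.29 for Mx1. With anti-CTLA-4, 4 were higher and 0 lower, against 9.33% and 14.2%, and the median was 0.25 against -0.08. Of these 4, Oasl1 stood at 93.3 against 43.4 CPM (1.11, 0.80 to 1.39), Rsad2 at 236 against 120 CPM (0.97, 0.79 to 1.15) and Oas3 at 131 against 84.8 CPM (0.62). The last was an effector gene with a ratio of 1.69. Isg15, at 890 against 608 CPM (0.55), was short of 1.5-fold. Median UMIs per myeloid cell were 6288.0 with isotype and 3552.0 with anti-CTLA-4.

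In MOC1 CD4 cells with isotype, Ifi27l2a was found in most cells and the other members read here in a minority. Each cell was thinned to 2000 UMIs, which left out 82 shallower cells with isotype, 53 with PD-1 antibody and 30 with CTLA-4 antibody. The mean load was 8.01, 9.56 and 4.40 member UMIs per cell in that order, and 2.21%, 3.25% and 7.98% of cells had none. The tenth of cells with the most held 35.2%, 35.1% and 37.2% of member UMIs. With isotype, Ifi27l2a was found in 78.5% of cells at this depth, Irf7 in 18.0%, Ifit3 in 4.73% and Ifit1 in 4.42%. The share of cells with an Isg15 UMI was 23.0% (95% exact binomial interval 19.8 to 26.5) with isotype. It was 28.8% (25.1 to 32.6) under anti-PD-1 and 20.6% (17.5 to 23.9) under anti-CTLA-4. At full depth it was 32.7%, 43.3% and 32.1%. In Foxp3-positive cells anti-PD-1 had 38.0% (33.2 to 43.0) and isotype 24.6% (22.0 to 27.3), and 57.9% and 47.3% at full depth. Lyz2, read the same way, was found in at most 0.946% of cells of these classes at 2000 UMIs and in at most 1.73% at full depth. Myeloid cells were only 0.2% to 1.09% of cells used in the MOC1 libraries. Lyz2 therefore does not give the level of stray RNA from other T cells, which was not tested.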

How the data were processed

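Bulk values are TPM as deposited by the authors in 2 tables, 1 of tumours and 1 of cultures. Single-cell values are UMI counts per gene and barcode in the deposited matrices. Per the submitters' processing notes, Cell Ranger 3.0.2, Seurat, Trimmomatic 0.36, kallisto 0.46.0, DESeq2 and the builds mm10 and GRCh38 were used, with no role given. Bulk identifiers were matched to symbols through the features table of a MOC1 library, where 30958 of 55573 matched. The others, Mx2 among them, were looked up in a reference list of gene names. Each TPM column sums to a fixed total, so bulk depth is unknown.

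The members, lists and tests were chosen with earlier results of these data known. Bulk genes with at least 1 TPM in 3 libraries were fitted as log2(TPM + 1) with limma 3.58.1 (trend, moderated test; R 4.3.3) and adjusted with Benjamini-Hochberg over all genes tested; such differences understate the change of low genes. Members named in full are the 6 highest by mean TPM and the 8 with the smallest p in each bulk comparison, the 6 highest per cell class, and the 4 largest ratios per single-cell contrast among members of at least 20 CPM. Others were named after their values were seen. Column numbers of the bulk tables are not the replicate numbers of the labels, so libraries are named by column.

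Cells with under 300 genes or over 10% mitochondrial UMIs were dropped. Before this, the highest mitochondrial share of a barcode was 4.99% to 5.0% in each MOC1E1 and MOC22 library and 49.8% to 97.81% in those of MOC1. The deposited matrices listed 31017 features for MOC1, 15411 for MOC1E1 and 14636 for MOC22, so the models did not arrive filtered alike. Scanpy 1.11.5 ran scrublet, and cells with the highest doublet scores were removed at 0.8% per 1000 cells. This removed 24 of 200, 14 of 157 and 19 of 146 cells with several hashtags in MOC1, so most such doublets stayed in. Hashtags were read at 4 times their median count. UMIs were summed per class, and log2 ratios of CPM had 0.5 UMI added on each side, over features with at least 20 UMIs in both libraries together. Counting intervals are at 95%, exact Poisson for levels and exact binomial for ratios and shares; they cover counting error only. Classes were compared within libraries on summed counts with edgeR 4.0.16, and DESeq2 1.42.0 as an alternative. Both model scripts were tested on simulated data. Promoter windows are RefSeq's. Python 3.11.15, numpy 2.4.6, scipy 1.17.1, pandas 2.3.3 and matplotlib 3.10.9 were used. T cell receptor tables and the exome samples were not used here. 1 gene of the pathway lists is not reported here.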

Additional observations from a re-analysis of the deposited data

Results flagged for a closer look

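The line difference of 21 members changed between cultures and tumours by the test of the difference itself (limma, adjusted p of at most 0.05), 20 higher and 1 lower. Among the members named for this comparison, the tumour difference minus the culture difference was 3.3 for Ifit1, 3.46 for Ifit2, 2.15 for Isg15, 2.84 for Oas1a, 2.04 for Oasl1, 2.02 for Oasl2, 2.58 for Rsad2, 1.55 for Irf7, 4.19 for Ifi44, 1.51 for Xaf1 and 2.39 for Slfn2. The part of the interferon gamma tag in the culture column names was not tested.

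The median log2 ratio of the members under anti-PD-1 was below 0 in MOC1 CD8 and CD4 cells and above 0 in both classes of the other models. In CD8 cells it was 0.55 higher in MOC1E1 than in MOC1 and 0.39 higher in MOC22. In CD4 cells it was 0.5 higher in MOC1E1 and 0.5 higher in MOC22. With 1 library per condition these differences were not tested. All features were shifted up in MOC22, with medians of 0.16 in CD8 and 0.22 in CD4 cells, against 0.02 and -0.04 in MOC1. The MOC22 CD8 median of the members, 0.12, was below that of all features and turned to -0.04 under median-ratio scaling.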

How the results depend on the processing

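Of 122 counts of called members under other settings, 92 stayed within 1.5 times the value reported, as did 138 of 170 counts past 1.5-fold; 113 of 124 medians kept their value within the error, and 460 of 496 bulk values of single members kept direction and side of the threshold. Of 100 shares of cells, 73 moved beyond their intervals at another depth. A share of cells with at least 1 UMI changes with depth by construction, so this count does not test the results. In tumours, members called higher were 0 with no filter and 0 in limma without a trend, and 0 to 1 leaving out 1 library; members called lower were 2 to 14. In cultures 1 member was called higher under quantile normalization and 1 under median-ratio scaling. Leaving out 1 MOC1 culture left 26 lower, since 5 members then failed the filter. In the difference of differences 2 members were lower under median-ratio scaling and 2 without a trend, and 0 to 2 leaving out 1 library. Leaving out 1 tumour library reversed Bst2 (-0.50 to 0.15), Isg15 (-0.32 to 0.28; -0.00 without MOC1 column 4) and Ifi27l2a (-0.21 to 0.38).

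In single cells the MOC1E1 CD8 median under anti-PD-1 was 0.94 in Pdcd1-positive cells, and that under anti-CTLA-4 turned to 0.59 there. For MOC22 the CD8 median turned to -0.04 under median-ratio scaling and to -0.18 in Pdcd1-positive cells, and the Foxp3-positive median to -0.05 with stricter classes and -0.1 under median-ratio scaling. The MOC1 CD4 median under anti-CTLA-4 ranged from -1.58 to -1.4 and the CD8 median from -0.88 to -0.83. Between CD4 and CD8 cells, DESeq2 called 3 members lower, and with no library block 3 were higher and 0 lower; leaving out 1 library gave 4 to 5 higher and 2 to 4 lower. Between Foxp3-positive and CD4 cells, DESeq2 called 1 lower, and with no library block 0 were higher and 1 lower; leaving out 1 library gave 3 to 7 higher and 1 to 7 lower. The cause of these shifts was not tested. Splits by Pdcd1 and by hashtag were chosen after seeing the data.

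No paired analysis was possible because the column numbers of the bulk tables do not match the replicate numbers of the labels. The main limits are 1 single-cell library per condition, 3 bulk libraries per group, the unexplained names of the culture columns, and members with few UMIs, where a level of a few CPM rests on single molecules.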

Other observations

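Myeloid cells of MOC1E1 were split after the data had been seen. Cells with C1qa, a complement gene of macrophages, had a summed member level of 6605, 6977 and 7069 CPM with isotype, PD-1 antibody and CTLA-4 antibody, from 212, 401 and 78 cells. Cells with Csf3r, the receptor of a neutrophil growth factor, and neither C1qa nor Csf1r stood at 10883, 16989 and 14239 CPM, from 179, 106 and 54 cells. In these Csf3r-positive cells Isg15 stood at 1462, 2832 and 2652 CPM, Rsad2 at 516, 1433 and 1078 CPM and Oasl2 at 669, 783 and 1187 CPM. Rsad2 in the C1qa-positive cells stood at 33.9, 90.1 and 319 CPM. Marker levels of these cells moved too. In the Csf3r-positive cells S100a8 stood at 26170, 21672 and 10583 CPM, Cd74 at 577, 1198 and 5279 CPM and H2-Ab1 at 81.4, 230 and 1211 CPM. In the C1qa-positive cells C1qa stood at 3374, 3880 and 1960 CPM, Cd74 at 31329, 33544 and 17580 CPM, Cd14 at 133, 160 and 336 CPM and Itgam at 73.7, 67.3 and 156 CPM. Their part in the member levels was not tested.

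Interferon ligand transcripts were found in few cells. Ifnb1 had 33 UMIs in 3 of 1414 myeloid cells of MOC1E1 with anti-PD-1, 22 of them in 1 cell. Ifnl2 had 22 UMIs and Ifnl3 13 UMIs, each in 1 of 716 CD4 cells of MOC1 with isotype.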
